A study of Homo sapiens with 3 samples.

Results

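The miR-17-92 cluster is a set of 6 microRNA (miRNA) hairpins cut from 1 primary transcript, and its mature products were examined here in the fraction of RNA bound to Argonaute2 (Ago2). Members were the 6 names hsa-miR-17, hsa-miR-18a, hsa-miR-19a, hsa-miR-20a, hsa-miR-19b and hsa-miR-92a, taken by exact name from the 851 human miRNA names on the array, with no use of their values. The series held 3 single-colour Agilent human miRNA arrays of Ago2 immunoprecipitates from Hep G2 cells, an established human liver cancer line. The non-treated group received no transfection, and the miR-195 and miR-497 groups received 5 nM of a synthetic double-stranded mimic of the named miRNA, delivered with Lipofectamine RNAiMAX and left for 24 hours. Each immunoprecipitate gave 10 ng of RNA, which was labelled with Cy3. Each group held 1 array, so no difference between groups has a replicate check or a p-value. No group transfected with a control RNA was analysed here, and the effect of a mimic cannot be told apart from that of transfection in a comparison with the non-treated array.

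A miRNA primary transcript is cut in the nucleus into hairpins and in the cytoplasm into short duplexes, of which 1 strand, the guide, is kept by an Argonaute protein while the other is mostly discarded. Members of a cluster are thus transcribed together, and unequal amounts of their mature forms arise at later steps such as cutting, loading and decay. The miR-17-92 cluster is transcribed under the control of MYC, is amplified in B cell lymphomas and is often raised in liver cancer, and its products repress inhibitors of growth and mediators of cell death.

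All 6 hairpins lie on the plus strand of chromosome 13 at chr13:91350605-91351391 (GRCh38.p14), over 787 bases inside the long noncoding host gene MIR17HG, in the order MIR17, MIR18A, MIR19A, MIR20A, MIR19B1 and MIR92A1. Between neighbouring hairpins there are 62, 69, 92, 56 and 35 bases. The mature sequences from RefSeq are shown because they sort the members into 4 seed families and show how alike some members are. Capitals mark the seed, bases 2 to 8 from the 5′ end, with which a miRNA pairs to its targets. The first pair shares a seed and is known to repress CDKN1A, an inhibitor of cell cycle entry.
hsa-miR-17: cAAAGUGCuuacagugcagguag
hsa-miR-20a: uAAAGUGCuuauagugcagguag
The seed of miR-18a differs from that of the first pair, and miR-18a is known to repress the secreted matrix protein CTGF.
hsa-miR-18a: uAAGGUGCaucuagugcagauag
The miR-19 pair shares a seed that none of the other members carries.
hsa-miR-19a: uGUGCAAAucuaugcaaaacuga
hsa-miR-19b: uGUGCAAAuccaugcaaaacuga
The last member, miR-92a, is known to repress the integrin subunit ITGA5.
hsa-miR-92a: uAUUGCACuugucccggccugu

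Of 2370 human mature miRNAs in the RefSeq table, 8 carried the miR-17 and miR-20a seed, 3 the miR-18a seed, 2 the miR-19 seed and 6 the miR-92a seed. miR-19a and miR-19b differed at 1 of 23 bases, and miR-17 and miR-20a at 2 of 23. Outside the cluster, miR-18b of the X chromosome differed from miR-18a at 1 of 23 bases. From the same chromosome, miR-20b differed from each of miR-17 and miR-20a at 2 of 23. Probes for such near-identical miRNAs can share target RNA, and their signals are uncertain to that extent. The names hsa-miR-19b and hsa-miR-92a also cover a second hairpin each on the X chromosome, whose mature product is the same. The transfected miRNAs have a seed of their own, which no member carries.
hsa-miR-195: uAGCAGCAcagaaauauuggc
hsa-miR-497: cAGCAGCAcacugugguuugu

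The miRNA signal of the miR-497 array was low: its scaling value, the 75th percentile over 183 probes detected on all arrays, was 31.8% of that of the non-treated array. Its labelling and hybridisation spike-ins differed from the non-treated array by -0.54 and -0.21 log2 units. Of 851 human names, 168, 153 and 121 were well above background, as the scanner software defines it, on the non-treated, miR-195 and miR-497 arrays respectively. Of 4 liver miRNAs, 3 were well above background on every array, and miR-122, the defining miRNA of hepatocytes, was on none. Of 4 blood cell miRNAs, 2 were well above background on every array, with a summed signal over the list of 1721, 1444 and 452 units on the non-treated, miR-195 and miR-497 arrays. Those 2 were miR-142-3p and miR-142-5p, while miR-223 and miR-150 were not, and the part of such cells in the results was not tested. None of the 4 muscle, 2 neuronal and 1 endothelial miRNAs was well above background.

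All 6 members were well above background on all 3 arrays and together gave 18.6% to 20.6% of the array signal. This share includes any product of the second miR-19b and miR-92a hairpins, which cannot be told apart. Of the 13 member probes 12 were well above background on every array, the exception being the dimmer probe of miR-18a on the miR-497 array at 20.1 units. The summed member signal was 47233 units (spot SD 1770) in non-treated cells, 44144 (1690) after miR-195 and 18284 (1157) after miR-497. As a share of the signal of all human miRNAs well above background, without the mimics and their passenger strands, this was 19.8% (spot SD 0.742), 20.6% (0.789) and 18.6% (1.18) in the same order. The spot SD here and below comes from repeated spots within an array and covers no error between cultures, precipitations or arrays.

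The brightest members were miR-19b and miR-17, and the dimmest was miR-18a. The miR-19b signal was 16778 units (spot SD 1162) in non-treated cells, 15177 (1355) after miR-195 and 6990 (969) after miR-497. The miR-17 signal was 14978 (1267), 14192 (900) and 5708 (623) in the same order of arrays. Both were thus at 90.5% and 94.8% of the non-treated signal after miR-195, and at 41.7% and 38.1% after miR-497. The miR-20a signal, from the other member with the miR-17 seed, was 8110 (367), 8491 (350) and 3239 (26.4). The miR-92a signal was 4037 (63.6), 3500 (276) and 1222 (51.2). miR-20a was the only member whose signal was higher on the miR-195 array than on the non-treated array before scaling, by 0.07 log2 units (spot SD 0.09). The miR-19a signal was 2862 (193), 2406 (99.0) and 986 (94.5). The miR-18a signal was 468 (13.5), 377 (26.5) and 140 (11.7). Every member was dimmest on the miR-497 array.

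The order of the signals was the same on all arrays, running from miR-19b through miR-17, miR-20a, miR-92a and miR-19a to miR-18a. It is an order of brightness and not of abundance, because labelling and probe affinity differ between sequences. Each signal is also a sum over probes, 3 for miR-17 and 2 for every other member. In the totals per miRNA of the scanner software, miR-17 and miR-19b lay further apart, at 4881 and 8714 units in non-treated cells. Neighbours in this order stood apart by more than the spot SD, except miR-19b and miR-17 on the miR-195 array, at 0.10 log2 units (spot SD 0.16). The widest step was from miR-19a down to miR-18a, at 2.61, 2.67 and 2.82 log2 units on the non-treated, miR-195 and miR-497 arrays. Brightness did not follow position in the transcript: the dim miR-18a hairpin lies next to the bright miR-17 hairpin. The brightest member, miR-19b, belongs to the fifth hairpin of 6, but its signal can also come from its second hairpin on the X chromosome.

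**Figure D1:**
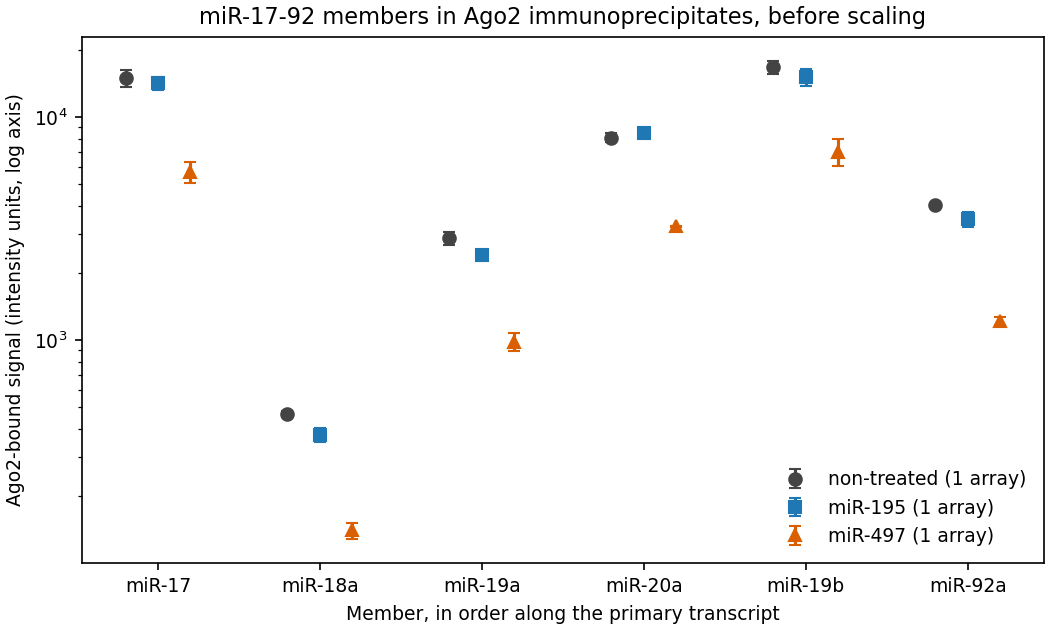
Signal of each member (intensity units, log axis) on the non-treated, miR-195 and miR-497 arrays, before scaling, in the order of the hairpins; points are single arrays and bars the spot SD. The non-treated and miR-195 points lie close together, and each miR-497 point lies below both, at 29.9% to 41.7% of the non-treated signal.

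The first comparison asks whether the cluster changed in Ago2 after transfection of miR-195. After division by the 75th percentile of each array, all 6 members stood within 2-fold of the non-treated array, and 0 of 6 passed 2-fold beside 3.40% of all 147 human miRNAs measured on both arrays. The highest was miR-20a at 0.15 log2 units (spot SD 0.09), a fold of 1.11. The lowest were miR-18a at -0.23 (0.11) and miR-19a at -0.16 (0.11). Between them lay miR-17 at 0.01 (0.15), miR-19b at -0.06 (0.16) and miR-92a at -0.12 (0.12). With this scaling 2 of 6 members were higher, beside 49.0% of all miRNAs, whereas all 6 were lower with the percentile over all probes, at -0.76 to -0.38, and with quantile normalization, at -0.67 to -0.41, and all 6 were higher when arrays were scaled on the labelling and hybridisation spike-ins, at 0.01 to 0.39. The median of all measured miRNAs moved too, to -0.55, -0.20 and 0.23 in the same order, and their share on each side of 0 was not computed for these alternatives. Of the 6 differences 4 were larger than their spot SD, beside 59.2% of all miRNAs. The member median was -0.09, beside -0.01 over the 147 miRNAs, and it was 0.15 with the spike-ins, synthetic RNAs added to every sample. Those spike-ins themselves differed from the non-treated array by -0.44 and -0.21 log2 units.

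The second comparison asks the same for miR-497. With scaling 0 of 6 members passed 2-fold, beside 3.39% of 118 miRNAs, and 4 of 6 were larger than their spot SD, beside 49.2%. The highest values were miR-19b at 0.39 (spot SD 0.22), miR-20a at 0.33 (0.07) and miR-17 at 0.26 (0.20), folds of 1.31, 1.25 and 1.20. miR-19a lay at 0.11 (0.17), miR-92a at -0.07 (0.06) and miR-18a at -0.09 (0.13). The 3 members with the brightest signals thus had the highest differences, and 4 of 6 members were higher, beside 55.1% of all miRNAs. The median over the members was 0.19, beside 0.03 over all 118, a positive sign that turned with no scaling at -1.46, with the percentile over all probes at -1.20, with the spike-ins at -1.09, with quantile normalization at -0.29 and in the authors' deposited table of log2 values at -1.43. Without scaling 6 of 6 members were lower after miR-497 by at least 2-fold, beside 95.8% of all miRNAs, and whether the cluster was higher or lower in these cells therefore depended on the scaling.

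The third comparison set the mimic arrays against each other, so that both sides had been transfected. With scaling 6 of 6 members were higher on the miR-497 array, beside 58.1% of 117 miRNAs, and all 6 were lower without scaling, each by at least 2-fold as were 97.4% of all miRNAs. The values after scaling ran from 0.05 (spot SD 0.13) for miR-92a and 0.14 (0.16) for miR-18a, over 0.17 (0.06) for miR-20a, 0.25 (0.18) for miR-17 and 0.28 (0.15) for miR-19a, to 0.45 (0.24) for miR-19b. None of the 6 passed 2-fold, beside 1.71%, and 4 were larger than their spot SD, beside 40.2%. The member median was 0.21, beside 0.02 over all miRNAs. This sign turned too, to -1.35 without scaling, -1.30 with the spike-ins, -0.63 with the percentile over all probes and -1.31 in the deposited table.

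Since a scaling factor moves all miRNAs of an array alike, the members can also be read against the median of all measured miRNAs. The member median minus that median was -0.08 for miR-195 against non-treated, 0.16 for miR-497 against non-treated and 0.19 between the mimic arrays, whatever single factor was used. Quantile normalization, which is no single factor, gave -0.25, -0.17 and 0.11. For reference, the SD over all measured miRNAs was 0.37, 0.41 and 0.26 log2 units in these comparisons. Both comparisons with non-treated cells share the non-treated array, and their values are given side by side only.

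**Figure D2:**
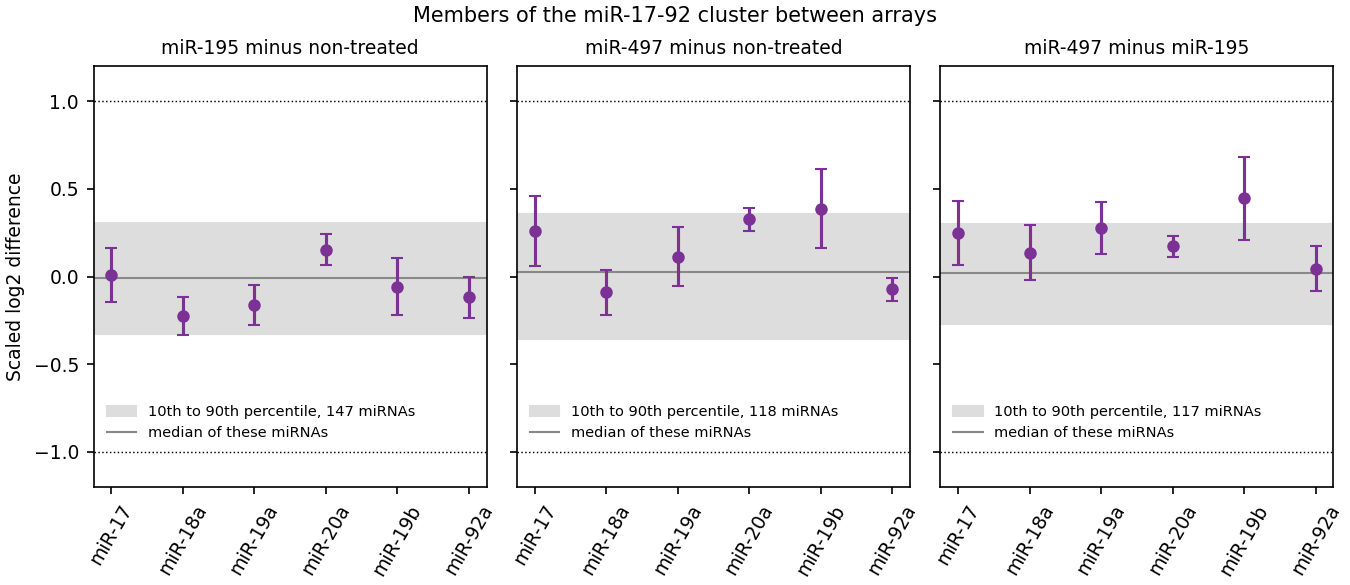
Scaled log2 difference of each member in the 3 comparisons, with the spot SD as bars; the grey band runs from the 10th to the 90th percentile of all human miRNAs measured on both arrays, the grey line is their median and the dotted lines mark 2-fold. No member reaches 2-fold, and between the mimic arrays all 6 lie above 0 with this scaling and between -1.52 and -1.12 without any.

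Ratios between members need no scaling factor. Those with miR-19b or miR-92a can include product of their second hairpins on the X chromosome. A change in such a ratio can still depend on the probes, since probes of 1 member did not all give the same change, as described further on. Of the 15 member pairs, 5 changed by more than the spot SD of the change after miR-195, 8 did so after miR-497, both against non-treated cells, and 4 between the mimic arrays. Over all pairs of measured miRNAs the share was 58.1%, 50% and 38.6%. Changes above 2 spot SDs numbered 2, 2 and 0, but the share over all pairs was not computed at that bound, so these counts cannot be set against it. The median size of a change was 0.14, 0.21 and 0.14 log2 units, and the largest were 0.38 (spot SD 0.14), 0.48 (0.26) and 0.40 (0.27).

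miR-20a took part in 4 of the 5 pairs that changed beyond the spot SD on the miR-195 array. Its ratio to miR-18a was 0.38 log2 units higher on the miR-195 array than on the non-treated array (spot SD 0.14) and 0.42 higher on the miR-497 array (0.14). Quantile normalization brought the first of these down to 0.05, below the spot SD, and the normexp background correction turned the second to -0.11. The ratio of miR-20a to miR-92a was 0.27 (0.15) and 0.40 (0.09) higher, and over the alternatives it ran from 0.24 to 0.32 and from 0.24 to 0.44. The ratio of miR-20a to miR-19a was 0.32 (0.14) and 0.21 (0.18) higher, and quantile normalization brought the first to 0.02 and the second to -0.26. On the miR-497 array only 8 of the 16 miR-20a spots were used after outlier flags, and its spot SD, at 0.814% of its signal, was the smallest of the 6 members there. With the outlier spots kept, miR-20a stood at 0.32 in place of 0.33. Between the mimic arrays none of these 3 ratios changed by more than its spot SD, the largest being that to miR-92a at 0.13 (0.14), but with normexp the ratio to miR-18a changed by -0.43. The ratio of miR-20a to miR-19b behaved otherwise. It was 0.21 (0.19) higher on the miR-195 array but changed by -0.06 (0.23) on the miR-497 array, both against non-treated. Between the mimic arrays it changed by -0.27 (0.25), beyond its spot SD. Quantile normalization brought the first of these values to 0.02 and the last to -0.09.

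Within the seed pairs, the ratio of miR-17 to miR-20a changed by -0.14 (spot SD 0.18), -0.07 (0.21) and 0.08 (0.19) in the 3 comparisons. The ratio of miR-19a to miR-19b changed by -0.11 (0.20), -0.27 (0.28) and -0.17 (0.28). All of these changes were smaller than their spot SD. With the mean of log2 over detected probes the ratio of miR-17 to miR-20a changed by -0.43 for miR-497 against non-treated, and with quantile normalization that of miR-19a to miR-19b changed by 0.19 there. The part of hybridisation shared between such near-identical sequences was not tested. The share of the summed member signal held by miR-19b was 35.5% in non-treated cells, 34.4% after miR-195 and 38.2% after miR-497, and that of miR-17 was 31.7%, 32.2% and 31.2%.

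Single probes of a member did not always move together. Of the 13 probes, 3 were higher and 10 lower on the miR-195 array than on the non-treated array after scaling. On the miR-497 array 6 of the 12 measured probes were higher and 6 lower. The 3 probes of miR-17 differed most. From the dimmest, at 294 units on the non-treated array, to the brightest, at 12098 units, their scaled differences for miR-497 against non-treated were -0.61 (spot SD 0.31), -0.22 (0.43) and 0.36 (0.22). For miR-19b the dimmer probe gave -0.12 (0.27) and the brighter 0.45 (0.24). The positive values of miR-17 and miR-19b therefore rest on their brightest probe, which holds most of the summed signal, and the mean of log2 over the probes gave miR-17 at -0.16 and the member median at 0.02.

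This pattern was not particular to the cluster. The brightest probe gave a higher value than the dimmest in 5 of 6 members for miR-195 against non-treated, beside 72.5% of the 91 miRNAs with more than 1 measured probe. In 5 of 5 members it did so for miR-497 against non-treated, beside 83.6% of 61, and in 4 of 5 between the mimic arrays, beside 80.3%. The part of probe brightness in the member differences was not tested. Across all 147 and 118 measured miRNAs, the Spearman rho between the non-treated signal and the difference from it was -0.036 for miR-195 and 0.21 for miR-497, as a description, since all points of each share 2 arrays.

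**Figure D3:**
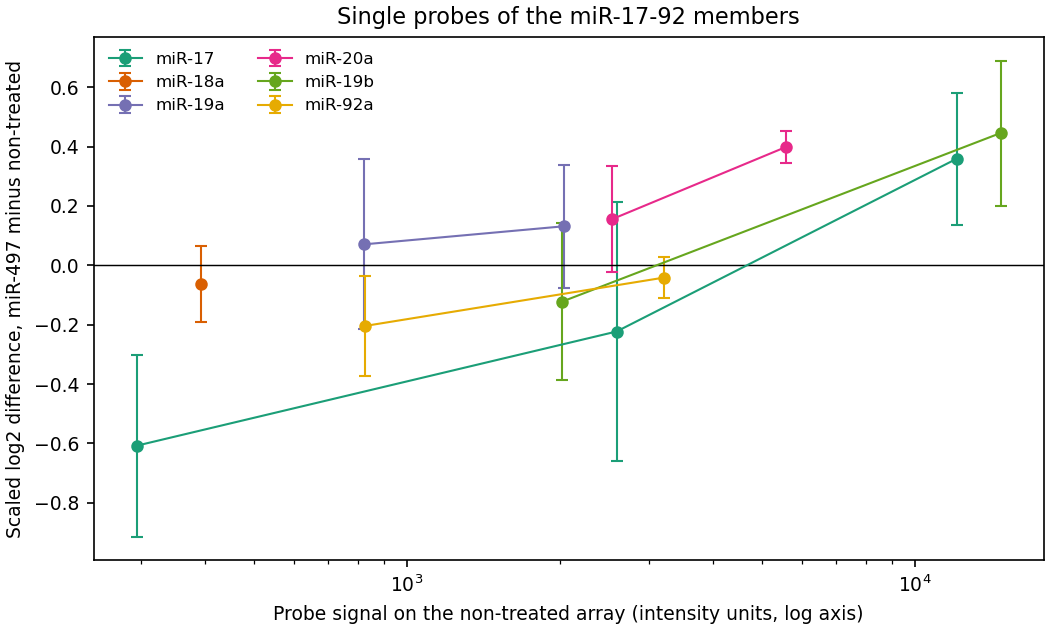
Scaled log2 difference of miR-497 against non-treated for each measured member probe, against its signal on the non-treated array (intensity units, log axis); lines join probes of 1 member and bars are the spot SD. In all 5 members with 2 or more measured probes the brightest probe lies above the dimmest, by 0.97 log2 units for miR-17 and 0.57 for miR-19b; without scaling all points shift together by -1.65 log2 units.

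The other strand of each hairpin, marked by an asterisk on the array, was far dimmer in Ago2 than the member strand, with 4, 3 and 2 of 6 well above background on the non-treated, miR-195 and miR-497 arrays. The sequences of the brightest pair are given because they carry the results on strands.
hsa-miR-17*: aCUGCAGUgaaggcacuuguag
hsa-miR-92a-1*: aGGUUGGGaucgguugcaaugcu
The miR-17* signal was 328 units in non-treated cells, 284 after miR-195 and 68.7 after miR-497, with spot SDs of 16.6%, 5.10% and 15.6% of the signal. The miR-92a-1* signal was 195.4, 105.5 and 42.4 units, with spot SDs of 9.42%, 9.12% and 15.8%. Both were well above background on all arrays. miR-19b-1* was measured at 32.0 (8.22) and 34.9 (10.2) on the first 2 arrays, with 1 of its 4 probes well above background, and miR-20a* at 22.0 (3.33) on the non-treated array only. miR-18a* and miR-19a* stayed near background throughout, and none of their 4 probes each was well above it.

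The ratio of the member strand to the other strand, taken within an array, changed beyond the spot SD in at least 1 comparison for both members whose other strand was measurable on all arrays. For miR-17 over miR-17* it was 5.51 log2 units in non-treated cells, 5.64 after miR-195 and 6.38 after miR-497, changes against non-treated of 0.13 (spot SD 0.29) and 0.86 (0.38). For miR-92a over miR-92a-1* it was 4.37, 5.05 and 4.85, changes of 0.68 (0.22) and 0.48 (0.27). Between the mimic arrays the changes were 0.73 (0.30) for miR-17 and -0.20 (0.29) for miR-92a. For miR-19b over miR-19b-1*, measured on the non-treated and miR-195 arrays only, the change was -0.27 (0.58). The miR-92a and miR-19b signals can include product of their X chromosome hairpins, while miR-92a-1* and miR-19b-1* cannot. These 2 ratios are therefore not strictly between strands of 1 hairpin. The other strand of the X chromosome miR-92a hairpin, miR-92a-2*, gave 226, 156 and 68.6 units on the non-treated, miR-195 and miR-497 arrays. The share of all hairpins with such a change was not computed. Other strands of the paralogue clusters described below were also lower after miR-195. The lower signals of both other strands moved with these ratios: miR-17* stood at -0.12 (0.25) and -0.61 (0.33) against non-treated after scaling, and miR-92a-1* at -0.80 (0.19) and -0.55 (0.26). Both strands were dim on the miR-497 array, where 1 of 2 probes of miR-17* and 1 of 4 of miR-92a-1* remained well above background. The dimmest probe of miR-17 itself, at 294 units in non-treated cells, also stood at -0.61 (0.31) for miR-497 against non-treated. The dimmer probe of miR-92a, at 829 units, stood at -0.20 (0.17). The part of probe brightness in these ratio changes was not tested. Since signals are sums over unequal numbers of probes, the levels of the ratios cannot be compared between the hairpins.

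**Figure D4:**
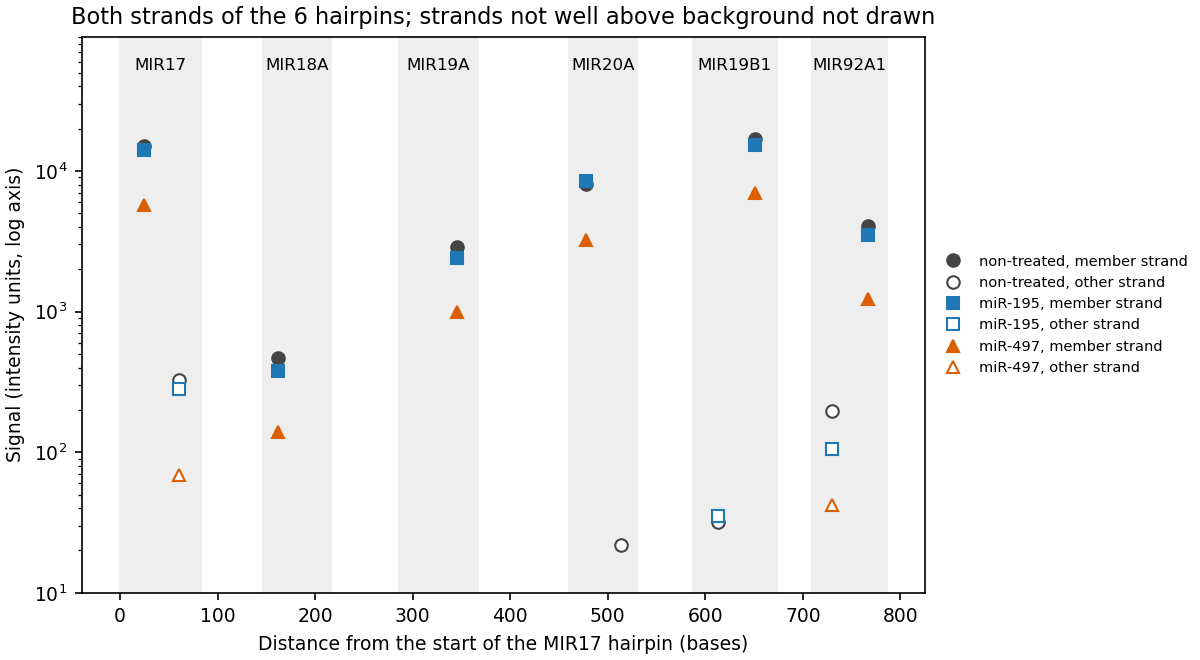
Signal (intensity units, log axis, before scaling) of both strands of the 6 hairpins against the distance of the strand's middle from the start of the MIR17 hairpin, in bases; filled symbols are member strands, open symbols the other strands, symbol shapes the 3 arrays and grey bands the hairpins. The other strands are 195.4 to 328 units for MIR17 and MIR92A1 on the non-treated array and 22.0 to 32.0 for MIR20A and MIR19B1, and none is drawn for MIR18A and MIR19A.

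In the deposited table most values of the other strands were not their own. That table holds the log2 of a total signal per miRNA made by the scanner software, and of the 9 totals of other strands above its floor, 7 held the total of the member strand in addition to the strand's own probes. For miR-20a* on the non-treated array the total was 4221 units, of which its own probes gave 11.4, while the total of miR-20a was 4212. For miR-19b-1* on the non-treated array it was 8723 units, its own probes giving 8.30 and the miR-19b total being 8714. miR-92a-1* carried such a total on all 3 arrays, at 2146, 1828 and 660 units. For miR-17* the totals of 171 units in non-treated cells and 146 after miR-195 were made of its own probes alone. The totals of the 6 members differed from the sum of their own probe totals by at most 0.00047% over the 18 values, so the deposited member values are free of this.

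**Figure D5:**
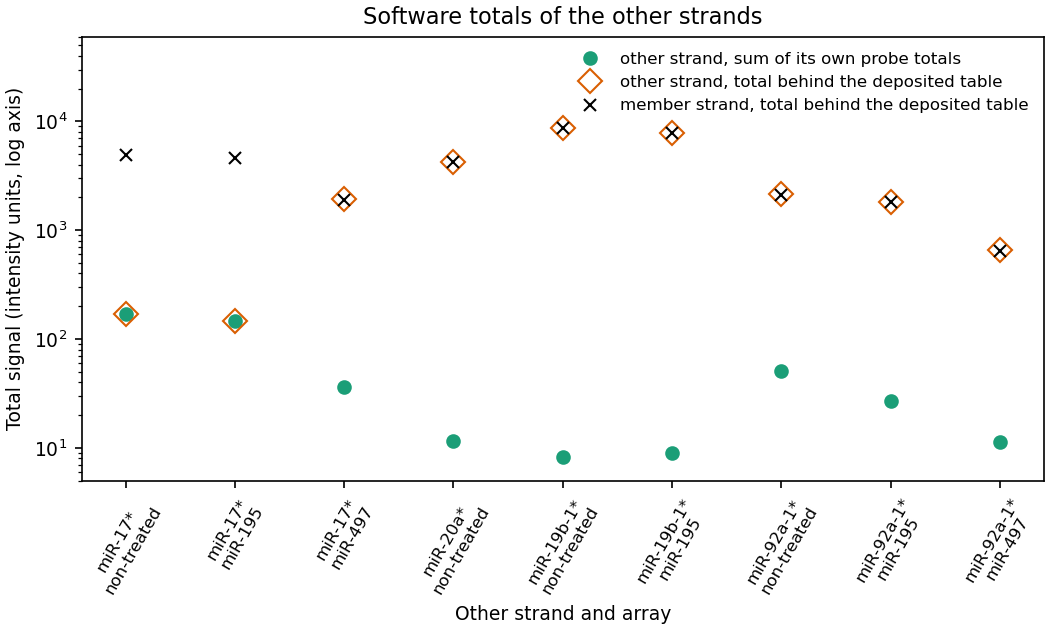
Software totals (intensity units, log axis) for the 9 values of other strands above the floor of the deposited table; diamonds are the total behind the table, filled circles the sum of the strand's own probe totals and crosses the total of the member strand. In 7 of 9 the diamond lies on the cross, and only for miR-17* on the non-treated and miR-195 arrays does it lie on the circle.

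Paralogue clusters arose by duplication and carry some or all of the same seed families. All 6 paralogue miRNAs with a signal of their own on the array were well above background on every array. Their sequences show the shared seeds.
hsa-miR-20b: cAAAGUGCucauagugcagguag
hsa-miR-106b: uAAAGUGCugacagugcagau
hsa-miR-93: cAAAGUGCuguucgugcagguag
hsa-miR-18b: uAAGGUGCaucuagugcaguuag
hsa-miR-363: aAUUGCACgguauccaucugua
hsa-miR-25: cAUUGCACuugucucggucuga
With the miR-17 seed, miR-20b stood at 0.11 (spot SD 0.10) for miR-195 and 0.37 (0.12) for miR-497 against non-treated, miR-106b at 0.05 (0.13) and 0.16 (0.17), and miR-93 at -0.28 (0.13) and -0.31 (0.26). These members of 1 seed family therefore lay on both sides of 0. miR-20b differs from miR-20a at 2 of 23 bases, and its values stood beside 0.15 and 0.33 for miR-20a. miR-18b, 1 base of 23 from miR-18a, stood at -0.08 in both comparisons, where miR-18a stood at -0.23 and -0.09. Probes for these near-identical pairs can share target RNA, so their values may not be separate measurements, and this was not tested. With the miR-92a seed, miR-363 stood at -0.22 (0.08) and 0.23 (0.16), and miR-25 at 0.12 (0.11) and 0.18 (0.15), beside -0.12 and -0.07 for miR-92a. None of these 6 paralogues passed 2-fold. On the non-treated array before scaling, the X chromosome paralogues miR-363, miR-20b and miR-18b gave 17456.5, 15278 and 2625 units. The chromosome 7 paralogues miR-106b, miR-93 and miR-25 gave 3122, 1314 and 1342. The brightest member, miR-19b, gave 16778 there. Without scaling every paralogue was lower on the miR-497 array, as were the members. Of 9 other strands of the paralogue hairpins 4, 3 and 2 were well above background on the non-treated, miR-195 and miR-497 arrays. The 3 on the miR-195 array were lower than in non-treated cells after scaling. They were miR-106a* at -0.51 (spot SD 0.18), miR-92a-2* at -0.45 (0.14) and miR-363* at -1.48 (0.40). For miR-497 against non-treated, miR-106a* stood at -0.17 (0.20) and miR-92a-2* at -0.07 (0.18). hsa-miR-106a was not analysed here.

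Outside the cluster and its paralogues, the miRNAs with the most similar pair of differences from non-treated to the member median (-0.09 and 0.19) were miR-33a, at a Euclidean distance of 0.053 log2 units, let-7g at 0.056, miR-146a at 0.084, miR-200b at 0.088 and miR-660 at 0.093. These were the nearest 5 of 105 miRNAs measured on all 3 arrays. The members themselves lay farther from that profile than these 5, at a median distance of 0.23 and at most 0.31, beside a median of 0.35 over the 105 miRNAs. Because the profile was made from the members, their distances are drawn down, and the medians cannot show whether the members moved together.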

How the data were processed

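The authors scanned 3 arrays with Agilent Feature Extraction 10.7.1.1 and deposited spot intensity with the background subtracted. Per the file headers, other columns hold flags for background and outliers. The authors also deposited log2 values, which equalled the log2 of the software total per miRNA for 961 IDs, to within 1.13e-06, and carried no scaling. The members and lists were chosen with earlier results of these data known. Groups came from the sample labels.

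Spots with an outlier flag were left out (12, 7 and 13 of 96 member spots on the non-treated, miR-195 and miR-497 arrays), probe means were summed per name and divided by the 75th percentile over 183 probes well above background on all arrays (827, 778 and 263 units). Detection of a probe required that over 50% of its used spots carried the background flag. No spot was saturated. Summaries used Python 3.11.15 with pandas 2.3.3 and were tested on simulated spots. Figures used matplotlib 3.10.9 and normexp limma 3.58.1. With 1 array per group and 1 slide no test was run, differences are described by 2-fold and by spot SD, and precision is limited by the number of arrays. The named miRNAs were the members, the paralogues and the other strands of both, whatever their values, and the 5 nearest profiles, which were chosen by their differences. The files name the hg19 build but hold no coordinates; coordinates and sequences are from RefSeq, GRCh38.p14, with array names matched to mature names by hand for all 20 sequences used. Alternatives covered scaling, background, summary, spots, detection and the deposited table.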

Additional observations from a re-analysis of the deposited data

Results flagged for a closer look

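In the deposited table, which enters no comparison of the strands, hsa-miR-17* stood at a log2 value of 10.92 on the miR-497 array and at 7.41 in non-treated cells. It drew attention as a signal above that of the control array in data outside the main measurement. The scanner signal of its own probes was lower on the miR-497 array, at 68.7 units compared with 328, a scaled difference of -0.61 (spot SD 0.33). The software total behind the table was 1934 units there, of which its own probes gave 36.5, beside a total of 1898 for hsa-miR-17.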

How the results depend on the processing

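The member median for miR-195 against non-treated moved beyond the spot error to -0.63 with the 75th percentile over all probes, -0.44 with quantile normalization and 0.15 with spike-in scaling. For miR-497 against non-treated it moved to -1.20, -0.29 and -1.09 in the same order, to -1.46 without scaling, -1.43 in the deposited table and 0.020 with the mean of log2 over detected probes. Between the mimic arrays it moved to -0.63 with the percentile over all probes, -1.35 without scaling, -1.30 with spike-ins and -1.31 in the table. Members past 2-fold, all lower, then numbered 5, 6, 4 and 6 of 6 for miR-497 against non-treated with the percentile over all probes, no scaling, spike-ins and the table, and 6, 6 and 6 between the mimic arrays with the last 3. The median of all measured miRNAs was then -1.36, -1.62 and -1.25 for miR-497 against non-treated with the first 3. Between the mimic arrays it was -1.54 without scaling and -1.49 with spike-ins. Apart from no scaling, the share of all miRNAs past 2-fold was not computed for these settings. Member pairs that changed beyond the spot SD numbered 3 in place of 5 for miR-195 with outlier spots kept, and 8 in place of 4 between the mimic arrays with normexp. The share over all pairs of measured miRNAs was not computed with these settings, so these counts cannot be set against it. The share of the array signal was 18.1%, 18.8% and 16.9% with the sum of probe totals. The causes were not tested. The other 134 alternative values for medians, ranges, counts and shares moved by less than the spot error (for counts, by under 1.5 times), and 25 moved by more. Of the values of single members 167 stayed and 85 moved. No value past 2-fold with the scaling used changed sign, since none passed it. Smaller values did: of 18, 14 changed sign with spike-ins, 12 with the percentile over all probes and 11 without scaling. The deposited table changed 11 and quantile normalization 6, and each other setting changed 3 or fewer. The share of all miRNAs that changed sign was not computed. The median of all miRNAs on the miR-497 array shifted against non-treated by -1.65 without scaling, -1.38 with all probes, 0.11 with median scaling, -0.15 with quantile normalization and -1.27 with spike-ins, and on the miR-195 array by -0.54 with all probes, 0.24 with spike-ins and -0.19 with quantile normalization. On the miR-497 array, where miRNA signals were low, 2 of 6 other strands were measurable. No paired analysis was possible because each group held 1 array.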
